A study of Mus musculus with 28 samples.

Results

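The genes described here are 9 genes of the NRF2 antioxidant system, namely Gclm, Gclc, Txnrd1, Prdx1, Hmox1, Ephx1, Ugdh, Nqo1 and Nfe2l2, in livers of Aag null and wild-type (WT) mice given methyl methanesulfonate (MMS), a chemical that methylates DNA. Every probe set that the array annotation assigns to these genes was taken, which gave 11 of the 12422 probe sets and 9 of 8949 genes. Of these, 9 probe sets of 8 genes carry the symbol of 1 gene only, with a pair for Nqo1. The remaining pair, for Prdx1, is annotated also to Gm21399, so its values are listed and not tested. Aag, whose gene symbol is Mpg, is the glycosylase that cuts methylated bases such as 3-methyladenine out of DNA. Total RNA of whole liver was measured on 28 Affymetrix arrays in 10 groups. The Aag null mice, called Aag below, gave 4 arrays without treatment, 3 arrays 6 h after MMS, 2 after 12 h, 4 after 24 h and 3 after 48 h. The WT mice gave 3 arrays without treatment, 2 arrays 6 h after MMS, 3 after 12 h, 2 after 24 h and 2 after 48 h. The dose and route of MMS, the strain, sex and age of the mice and the construction of the Aag allele are not stated in the labels. Nor do the labels tie each replicate to an animal of its own, so the p-values speak only of the spread between these samples, which may be technical, and the number of arrays limits the precision.

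NRF2, encoded by Nfe2l2, is a transcription factor that is held in the cytoplasm and sent to degradation by KEAP1 in unstressed cells. When electrophiles or oxidants modify cysteines of KEAP1, NRF2 accumulates, pairs with a small MAF protein such as MAFK and binds the antioxidant response element upstream of its targets. In liver those targets make and use glutathione, run the thioredoxin system, break down heme and convert reactive compounds into forms that can be excreted.

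The sequences upstream of the genes show which of them carry the core of the antioxidant response element close to an annotated start. The core was searched as TGACNNNGC on both strands of the 250 bases before each start, in RefSeq sequences of build GRCm38.p6. It was present in 10.2% of all 32851 such windows and in 11.5% of the 27025 genes that have one. Windows were at hand for 7 of the 9 genes, in 9 windows, and 5 genes had at least 1 match, namely Gclm, Txnrd1, Prdx1, Ugdh and Nfe2l2. The windows of Ephx1 and Nqo1 held none, and Gclc and Hmox1 were not searched. A match is a description of the letters and not a bound site, and binding was not measured here. The windows of the 3 genes that rose in WT liver after MMS are printed whole, 5′ to 3′ along the strand of the gene, with the match in capitals where there is one. Gclm lies at chr3:122245487-122267215, and its window chr3:122245307-122245556 on the plus strand holds 1 match on the opposite strand. The match runs from base -134 to base -126 counted from the annotated start at base 122245557, which lies 70 bases after the first base of the gene. Ugdh lies at chr5:65413207-65435842, and its window chr5:65435843-65436092 on the minus strand holds a match on the same strand from -132 to -124 and another on the opposite strand from -94 to -86. Ephx1 lies at chr1:180989556-181017569, and its window chr1:181017570-181017819 on the minus strand holds 0 matches.
Gclm: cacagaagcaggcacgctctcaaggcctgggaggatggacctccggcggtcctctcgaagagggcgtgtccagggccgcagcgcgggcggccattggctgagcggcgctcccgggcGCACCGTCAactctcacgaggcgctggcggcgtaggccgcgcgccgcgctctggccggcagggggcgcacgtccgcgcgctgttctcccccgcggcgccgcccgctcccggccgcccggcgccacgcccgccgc
Ugdh: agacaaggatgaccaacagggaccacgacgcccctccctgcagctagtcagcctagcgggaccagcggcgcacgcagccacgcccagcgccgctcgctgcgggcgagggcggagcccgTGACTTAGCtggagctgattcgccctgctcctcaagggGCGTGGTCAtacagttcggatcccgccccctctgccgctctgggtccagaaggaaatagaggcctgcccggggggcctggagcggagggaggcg
Ephx1: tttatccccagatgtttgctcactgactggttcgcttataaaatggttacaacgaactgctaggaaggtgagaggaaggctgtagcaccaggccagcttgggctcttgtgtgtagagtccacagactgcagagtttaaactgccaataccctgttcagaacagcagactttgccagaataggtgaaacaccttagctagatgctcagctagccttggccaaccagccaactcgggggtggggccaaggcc
Shorter stretches around the match show the same core in the other genes. The stretch of Txnrd1 is chr10:82859089-82859147 on the plus strand, before the second of its 3 annotated starts, and its match lies on the opposite strand. The stretch of Prdx1 is chr4:116685441-116685499 on the plus strand, with the match also on the opposite strand. The stretch of Nfe2l2 is chr2:75704870-75704913 on the minus strand, with the match on the same strand from -240 to -232.
Txnrd1: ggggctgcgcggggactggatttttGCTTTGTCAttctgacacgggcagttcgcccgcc
Prdx1: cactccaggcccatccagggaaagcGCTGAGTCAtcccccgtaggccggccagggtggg
Nfe2l2: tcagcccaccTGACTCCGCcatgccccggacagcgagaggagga

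**Figure D1:**
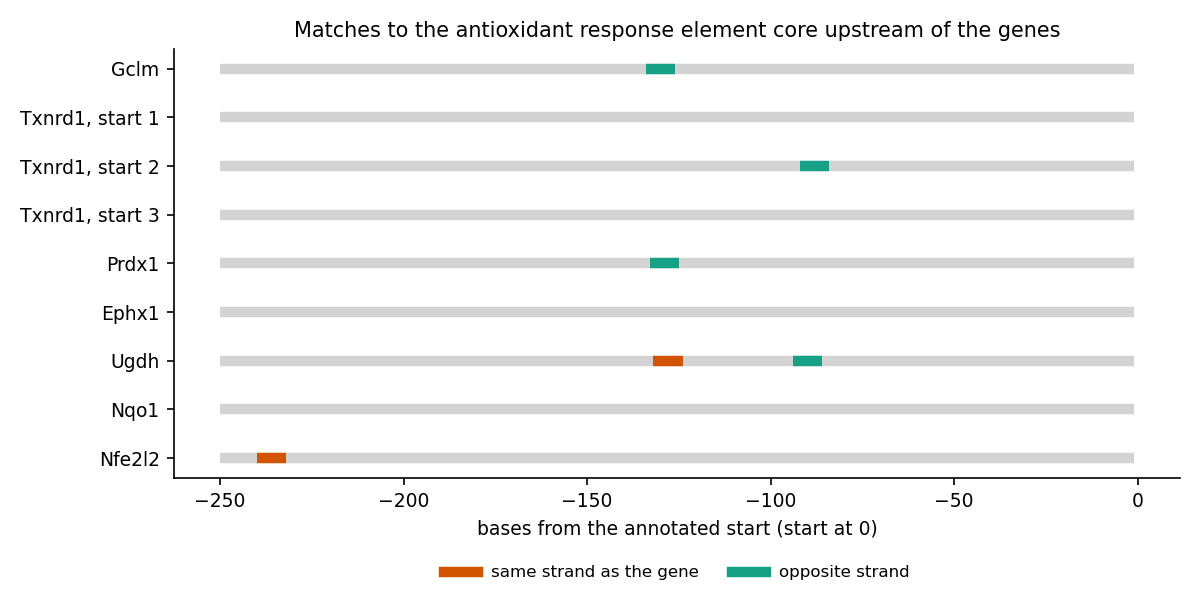
Positions of the matches to TGACNNNGC in the 250 bases before each annotated start; the horizontal axis is the distance from the start in bases, grey bars are the windows and coloured blocks the matches by strand. Txnrd1 has a match before the second of its starts only, Ugdh has a pair, and the windows of Ephx1 and Nqo1 hold none.

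The arrays fall apart in ways that touch the comparisons below. The mean of 9 hybridization control probe sets, spiked in after labelling, was 6.42 to 9.22 in 23 arrays, here the lower array set, and 10.2 to 11.6 in the remaining 5, the higher array set. The lower set holds every treated array with Aag untreated replicates 1 and 2, and the higher set holds Aag untreated replicates 3 and 4 with the 3 arrays of WT untreated liver. In WT liver the array set and the treatment therefore cannot be told apart within the genotype, and a fit adjusted for the set (an added term in the model) takes the size of that term from the 4 Aag untreated arrays alone. The difference between 3' and 5' probe sets of Gapdh, which moves with the quality of the RNA, split the arrays the same way. Treated arrays had values of -0.37 to 0.21, and the WT untreated arrays 0.63 to 0.92. For untreated Aag mice, the lower-set replicates 1 and 2 gave -0.19 and 0.02, while the higher-set replicates 3 and 4 gave 0.64 and 0.67. The term for the array set therefore cannot be told apart from this Gapdh difference. Female-typical liver transcripts were seen in Aag 24 h replicates 1 and 2 and in Aag untreated replicate 3. Mpg was dim, at 2.27 to 2.60 in the 16 Aag arrays and 2.38 to 2.87 in the 12 WT arrays and never above the array median, and the place of its probe set relative to the null allele is not known. Albumin was at 12.10 to 12.62 in all arrays, and the summed hepatocyte markers, 7 of 9 measured, stayed between 13.61 and 14.03. Values below are log2 signals after quantile normalization, so 1 unit is a doubling. Values after ± are standard deviations (SD), differences are on the log2 scale with a standard error (SE) from limma, and a probe set is called where its Benjamini-Hochberg adjusted p over all 12422 probe sets was under 0.05.

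In Aag liver none of the 9 probe sets was called at any time after MMS, whereas in WT liver Gclm, Ephx1 and Ugdh rose and Gclc fell. Of the 36 tests in Aag liver 0 were called by limma, and 7 had an unadjusted p under 0.05. Few probe sets of any kind were called in Aag liver, the shares being 0.314%, 0.129%, 0.499% and 0.233% at 6, 12, 24 and 48 h. In WT liver 12 of 36 tests were called, 10 higher and 2 lower. Higher probe sets made up 7.42%, 10.6%, 6.44% and 7.72% of all, and lower ones 9.42%, 11.2%, 8.67% and 9.92%, at 6, 12, 24 and 48 h. The counts in WT liver were 3 of 9 at 6 h, where 16.8% of all probe sets were called, 4 of 9 at 12 h against 21.7%, 2 of 9 at 24 h against 15.1% and 3 of 9 at 48 h against 17.6%. The shares of called members thus lay above these backgrounds at each time, but 9 probe sets are few, and no test of that excess was made. The background holds probe sets of every brightness, while all tested members but Nqo1 exceeded the array median in all 28 arrays. The 4 times also share the same 3 WT untreated arrays. A call in WT liver and none in Aag liver does not show that the responses differ, and the test of that difference is given further on. Adjusted for array set, 2 of the 36 WT tests were called, both of Gclc and both lost without Aag untreated replicate 3, where the background was 1.49%, 2.5%, 2.62% and 2.99% at 6, 12, 24 and 48 h. With only the compared groups in the fit, 7 WT tests were called, and all calls at 6 h and 24 h missed the threshold. Array weights in limma ended every WT call at 6 h. Gclm was then 0.86 (adjusted p = 0.386), Ephx1 0.77 (adjusted p = 0.673) and Ugdh 1.17 (adjusted p = 0.594). They also ended the call of Gclc at 12 h (-0.58, adjusted p = 0.0924). Red blood cell markers moved with the same groups, since their sum over 4 of 8 measured markers was 8.15 to 8.89 in treated WT liver and 9.22 to 10.41 in WT untreated liver, and their part in these results was not tested.

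**Figure D2:**
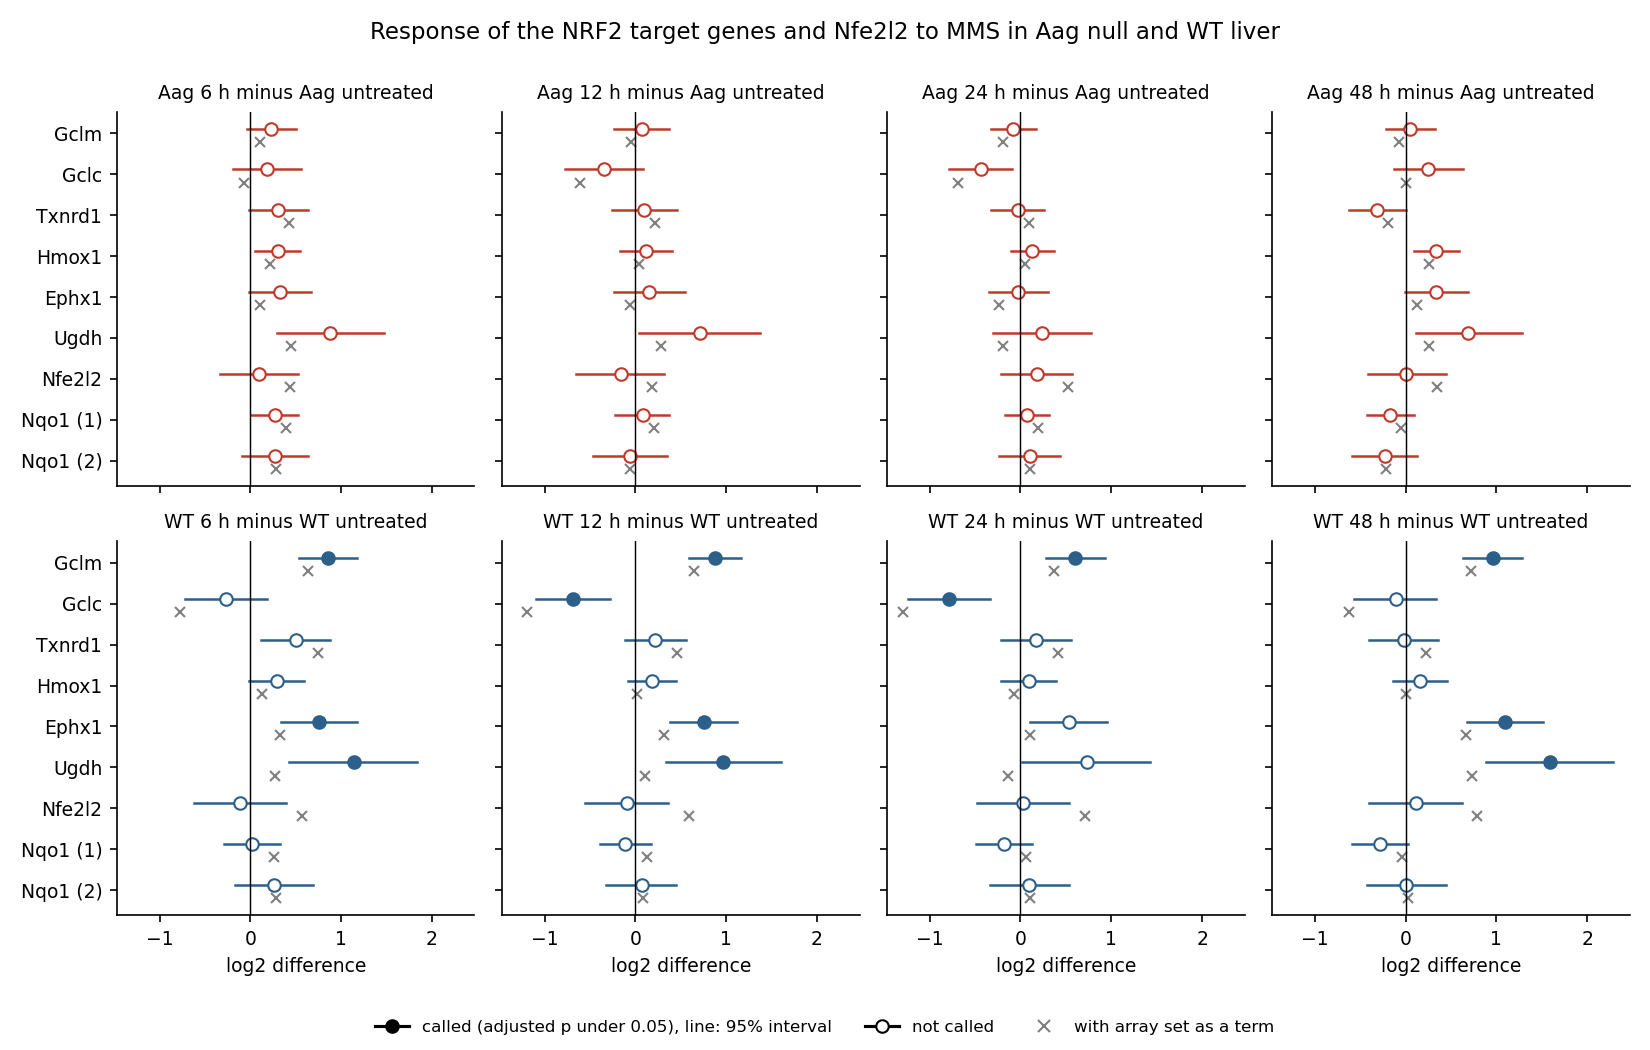
Log2 difference of treated minus untreated liver for each probe set, Aag in the upper row and WT in the lower row, by time after MMS; circles are the fitted differences, filled where called, lines the 95% intervals and crosses the differences in the fit adjusted for array set. Nqo1 (1) and (2) are its pair of probe sets, filled circles appear only in the WT row, and the crosses of Gclm, Ephx1 and Ugdh lie closer to 0 than their circles in the WT row.

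Gclm encodes the modifier subunit of glutamate-cysteine ligase, which makes the catalytic subunit more active in the first step of glutathione synthesis. It is the gene with the clearest difference here, low in WT untreated liver and higher in every other group. In Aag liver its signal was 6.46, 6.54, 6.16 and 6.38 untreated, then 6.46, 6.79 and 6.59 at 6 h, 6.64 and 6.26 at 12 h, 6.21, 6.29, 6.32 and 6.42 at 24 h and 6.43, 6.44 and 6.43 at 48 h. In WT liver it was 5.69, 5.59 and 5.75 untreated, then 6.82 and 6.26 at 6 h, 6.42, 6.70 and 6.54 at 12 h, 6.40 and 6.17 at 24 h and 6.65 and 6.62 at 48 h. Every other array, the lowest being Aag untreated replicate 3 at 6.16, stood above the highest WT untreated array at 5.75. Gclm rose in WT liver at all 4 times, by 0.86 (SE 0.16, adjusted p = 0.000797) at 6 h, 0.88 (SE 0.14, adjusted p = 0.000133) at 12 h, 0.60 (SE 0.16, adjusted p = 0.0108) at 24 h and 0.96 (SE 0.16, adjusted p = 0.000251) at 48 h in limma, a 1.52-fold to 1.94-fold increase. In Aag liver the differences were 0.23, 0.07, -0.08 and 0.05 at the same times, with adjusted p between 0.482 and 0.936, and the groups overlapped at each time. In the fit adjusted for array set the WT differences were 0.63, 0.64, 0.37 and 0.72, with adjusted p between 0.0771 and 0.417, so none was called. The call at 24 h was also lost without WT 24 h replicate 1 (0.49, adjusted p = 0.155 in limma).

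Between the genotypes without treatment, Gclm was the only 1 of the 9 probe sets called, where 9.36% of all probe sets were called and 3.69% of all were called higher in Aag. It was higher in Aag untreated liver, at 6.39 ± 0.16 (SD, n = 4), than in WT untreated liver, at 5.68 ± 0.08 (SD, n = 3). The difference of 0.71 (SE 0.13, adjusted p = 0.00156 in limma) is 1.63-fold, and it held in 4 of 4 Aag arrays, each above all 3 WT arrays. Once the array set was adjusted for, it was 0.59 (adjusted p = 0.0239), again the only call, at a background of 4.81%, and without Aag untreated replicate 3 that fit gave 0.70 (adjusted p = 0.066). Within the higher set, where Aag untreated replicates 3 and 4 (6.16 and 6.38) meet the 3 WT untreated arrays, it was 0.59 with adjusted p = 0.218, at a background of 0.169% of probe sets called. The call was lost, at almost the same size, with array weights (0.70, adjusted p = 0.0939) and with only the groups compared in the fit (0.71, adjusted p = 0.0773). The nearest of the other genes was Ephx1, at 0.49 (SE 0.17, adjusted p = 0.0695), and it passed without Aag untreated replicate 3 (0.61, adjusted p = 0.0221) or WT untreated replicate 3 (0.66, adjusted p = 0.0196).

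Gclc, at chr9:77754535-77794489, encodes the catalytic subunit of the same enzyme, and it moved the other way in WT liver. In Aag liver its signal was 6.60, 6.27, 5.50 and 6.36 untreated, then 6.35, 6.43 and 6.32 at 6 h, 5.97 and 5.69 at 12 h, 5.64, 5.71, 5.79 and 5.82 at 24 h and 6.61, 6.21 and 6.49 at 48 h. In WT liver it was 6.40, 6.90 and 6.50 untreated, then 6.34 and 6.32 at 6 h, 5.64, 6.08 and 6.02 at 12 h, 5.95 and 5.67 at 24 h and 6.54 and 6.43 at 48 h. Arrays at 12 h and 24 h are the low ones in both genotypes, while the untreated Aag arrays spread over both levels, with replicate 3, a female-typical array, at 5.50. Gclc fell in WT liver by 0.69 (SE 0.20, adjusted p = 0.0151) at 12 h and by 0.79 (SE 0.22, adjusted p = 0.0169) at 24 h in limma, to 0.621 and 0.579 of the untreated level. It was -0.27 (adjusted p = 0.422) at 6 h and -0.11 (adjusted p = 0.759) at 48 h. After adjustment for array set they were -1.19 (adjusted p = 0.024) at 12 h and -1.29 (adjusted p = 0.0197) at 24 h, but these values rest on Aag untreated replicate 3. Without that array the same fit, added after the data were seen, gave -0.76 (adjusted p = 0.172) and -0.87 (adjusted p = 0.124), neither called. Single arrays decide these calls, since adjusted p was 0.0756 at 12 h and 0.0677 at 24 h without WT untreated replicate 2, 0.09 at 12 h without WT 12 h replicate 1, and 0.0535 and 0.203 at 24 h without WT 24 h replicates 1 and 2 in turn.

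In Aag liver the Gclc difference at 24 h was -0.44 (SE 0.17, adjusted p = 0.259 in limma) and that at 12 h was -0.35 (SE 0.21, adjusted p = 0.616). Against Aag untreated replicates 1 and 2 alone, within the lower array set, Gclc fell by 0.69 at 24 h (adjusted p = 0.0275), at a background of 0.781%, and without Aag untreated replicate 3 by 0.67 (adjusted p = 0.0393). The female-typical Aag 24 h replicates 1 and 2 were at 5.64 and 5.71, and replicates 3 and 4 at 5.79 and 5.82. The time course among treated arrays needs no untreated array. There the 11 arrays at 12 h and 24 h ranged from 5.64 to 6.08, and the 10 arrays at 6 h and 48 h from 6.21 to 6.61, so the times did not overlap in either genotype. This split of times was chosen after the values were seen. The difference of 48 h minus 24 h was 0.69 (SE 0.18, adjusted p = 0.204) in Aag liver and 0.67 (SE 0.24, adjusted p = 1 in limma) in WT liver. Within the lower set alone it passed in Aag liver (0.69, adjusted p = 0.0258), as did 24 h minus 6 h (-0.62, adjusted p = 0.049), at backgrounds of 0.282% and 0.217%.

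**Figure D3:**
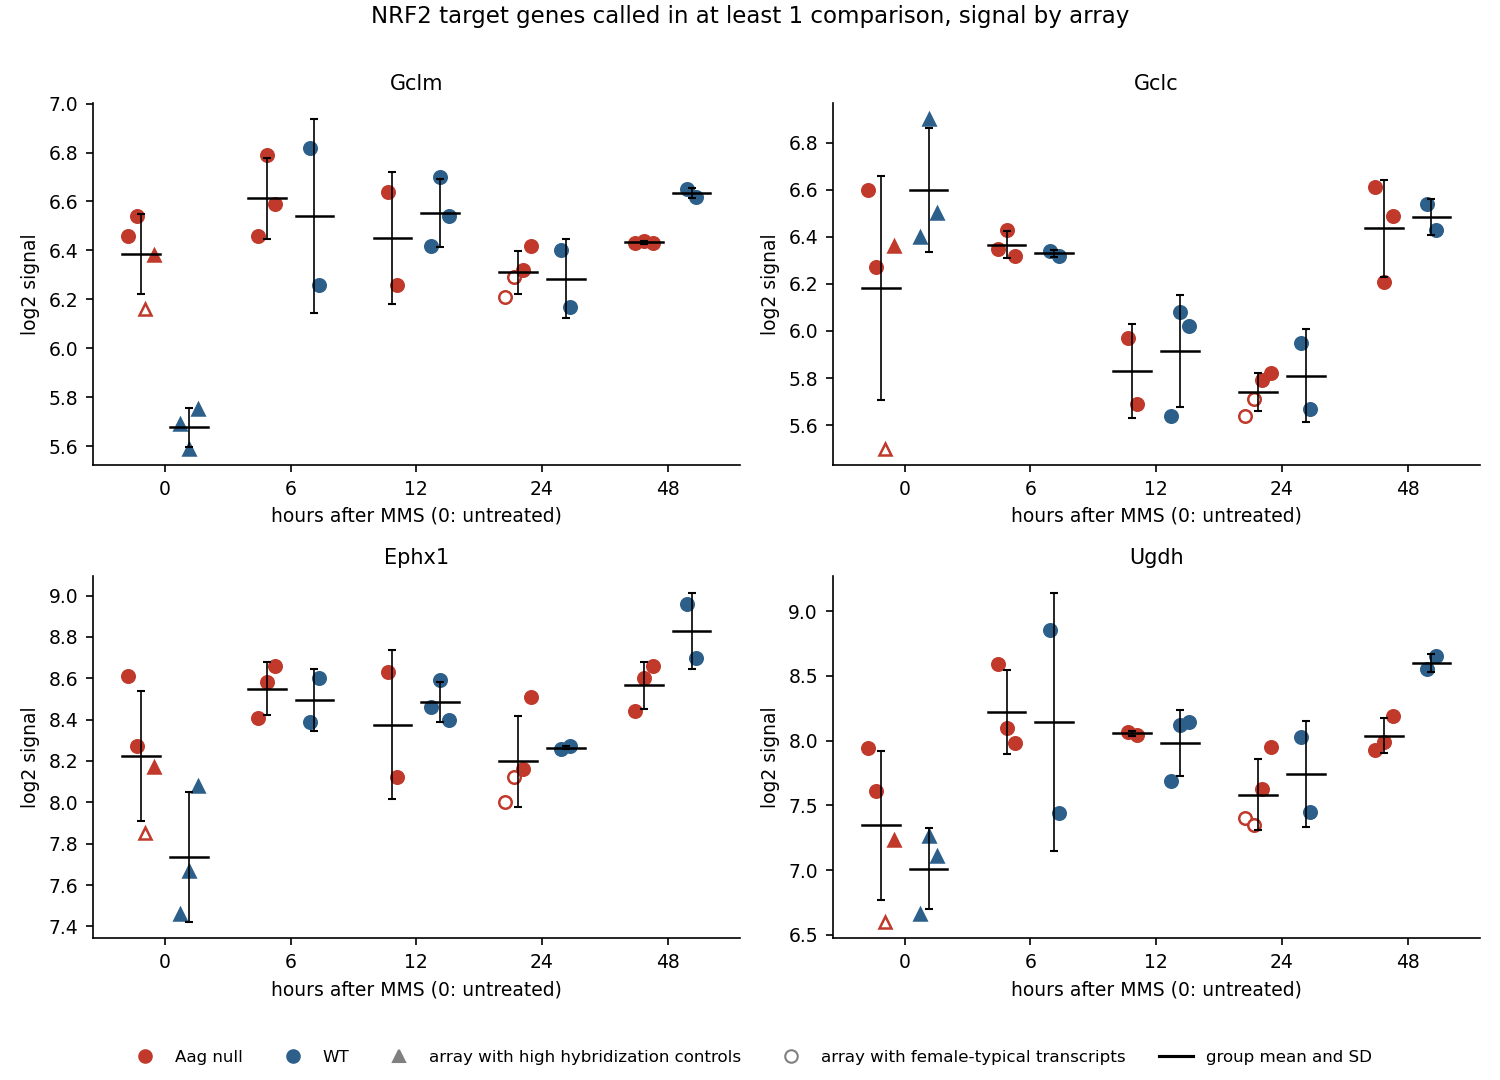
Log2 signal of Gclm, Gclc, Ephx1 and Ugdh in each array by time after MMS (times evenly spaced, 0 is untreated), Aag to the left of WT at each time; points are arrays, triangles have high hybridization controls, open symbols female-typical transcripts, and black lines the group mean with its SD. WT untreated arrays are the lowest for Gclm, at 5.59 to 5.75, and Gclc is low at 12 h and 24 h in both genotypes.

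Ephx1 encodes microsomal epoxide hydrolase, which turns reactive epoxides into diols, and Ugdh encodes UDP-glucose dehydrogenase, which makes the UDP-glucuronic acid used in glucuronidation. Both rose in WT liver at 6, 12 and 48 h and were not called at 24 h. In Aag liver Ephx1 was 8.61, 8.27, 7.85 and 8.17 untreated, then 8.41, 8.58 and 8.66 at 6 h, 8.63 and 8.12 at 12 h, 8.0, 8.12, 8.16 and 8.51 at 24 h and 8.44, 8.60 and 8.66 at 48 h. In WT liver Ephx1 was 7.46, 7.67 and 8.08 untreated, then 8.39 and 8.60 at 6 h, 8.46, 8.59 and 8.40 at 12 h, 8.26 and 8.27 at 24 h and 8.96 and 8.70 at 48 h. All 9 treated WT arrays lay above all 3 WT untreated arrays, whereas treated and untreated Aag arrays overlapped at every time. Ephx1 rose in WT liver by 0.76 (SE 0.20, adjusted p = 0.0125) at 6 h, 0.75 (SE 0.18, adjusted p = 0.00475) at 12 h and 1.10 (SE 0.20, adjusted p = 0.000727) at 48 h in limma, and was 0.53 (adjusted p = 0.0769) at 24 h. In Aag liver its differences were 0.33, 0.15, -0.03 and 0.34 at 6, 12, 24 and 48 h, with adjusted p between 0.348 and 0.96 in limma. Adjusted for array set, the WT differences were 0.33, 0.32, 0.10 and 0.66, with adjusted p between 0.191 and 0.889. The WT call at 6 h was lost without WT untreated replicate 1 (0.62, adjusted p = 0.0538) or WT 6 h replicate 2 (0.65, adjusted p = 0.0632), and the value at 24 h passed without WT untreated replicate 3 (0.70, adjusted p = 0.0213).

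Ugdh in Aag liver was 7.94, 7.61, 6.60 and 7.23 untreated, then 8.59, 8.10 and 7.98 at 6 h, 8.07 and 8.04 at 12 h, 7.40, 7.35, 7.63 and 7.95 at 24 h and 7.93, 7.99 and 8.19 at 48 h. Ugdh in WT liver was 6.66, 7.26 and 7.11 untreated, then 8.85 and 7.44 at 6 h, 7.69, 8.12 and 8.14 at 12 h, 8.03 and 7.45 at 24 h and 8.55 and 8.65 at 48 h. All 9 treated WT arrays lay above the WT untreated arrays, and in Aag liver the 6 h and 12 h arrays lay above the untreated ones while those at 24 h and 48 h overlapped them. The pair at WT 6 h is far apart, and replicate 1 with the higher value is the array with the lowest hybridization controls of all. In WT liver Ugdh rose by 1.14 (SE 0.34, adjusted p = 0.0241) at 6 h, 0.97 (SE 0.30, adjusted p = 0.0249) at 12 h and 1.59 (SE 0.34, adjusted p = 0.00245) at 48 h in limma, the last being 3.01-fold, and was 0.73 (adjusted p = 0.155) at 24 h. In Aag liver it was 0.88 (SE 0.28, adjusted p = 0.171) at 6 h, 0.71 (adjusted p = 0.475) at 12 h, 0.24 (adjusted p = 0.741) at 24 h and 0.69 (adjusted p = 0.259) at 48 h. In the fit adjusted for array set the WT values were 0.27, 0.11, -0.14 and 0.73, with adjusted p between 0.396 and 0.946, so the sign turned at 24 h. The WT call at 6 h was lost without WT 6 h replicate 1 (0.43, adjusted p = 0.42) and the call at 12 h with the values as deposited (0.96, adjusted p = 0.0519), and both were lost without WT untreated replicate 1 (0.96, adjusted p = 0.0846 at 6 h, and 0.79, adjusted p = 0.108 at 12 h). Leaving out WT 12 h replicate 2 (0.90, adjusted p = 0.0826) or replicate 3 (0.89, adjusted p = 0.0846) also ended the call at 12 h, and in all of these fits the call at 48 h was kept.

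Txnrd1, at chr10:82833951-82897724, encodes cytosolic thioredoxin reductase, which keeps thioredoxin reduced with electrons from NADPH. It was not called in any comparison. In Aag liver it was 5.47, 5.61, 5.81 and 5.74 untreated, then 6.21, 5.78 and 5.90 at 6 h, 5.74 and 5.77 at 12 h, 5.61, 5.68, 5.53 and 5.68 at 24 h and 5.16, 5.29 and 5.60 at 48 h. In WT liver it was 5.38, 5.70 and 5.70 untreated, then 6.48 and 5.71 at 6 h, 5.72, 5.92 and 5.79 at 12 h, 5.93 and 5.61 at 24 h and 5.52 and 5.63 at 48 h. The highest group mean after MMS was at 6 h, 5.96 ± 0.23 in Aag (SD, n = 3) and 6.09 ± 0.54 in WT (SD, n = 2), and the lowest at 48 h, 5.35 ± 0.23 in Aag (SD, n = 3) and 5.58 ± 0.08 in WT (SD, n = 2). The difference of 48 h minus 6 h was -0.61 (SE 0.16, adjusted p = 0.223 in limma) in Aag liver and -0.52 (SE 0.20, adjusted p = 0.517) in WT liver. With array weights in limma the Aag difference was called (-0.49, adjusted p = 0.00271). So was that of 48 h minus 12 h in Aag liver (-0.36, adjusted p = 0.0312). The WT arrays at 6 h lay far apart, and WT 6 h minus untreated was 0.50 (SE 0.18, adjusted p = 0.0639). With the values as deposited that difference was 0.67 (adjusted p = 0.029 in limma). Without WT 6 h replicate 2 it was 0.88, and WT 48 h minus WT 6 h was -0.90. Both of these values rest on 1 WT array at 6 h, replicate 1, which has the lowest hybridization controls of all. Prdx1, at chr4:116685599-116700000, encodes a peroxiredoxin that reduces peroxides at the expense of thioredoxin. Its pair of probe sets, shared with Gm21399, lay between 9.80 and 10.63 and between 10.01 and 10.63 over the 28 arrays, with group means of the first from 9.89 at WT 24 h to 10.41 in WT untreated liver. No difference is read from these values, since the signal of the 2 genes cannot be told apart.

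Hmox1, at chr8:75093618-75100593, encodes heme oxygenase-1, which breaks down heme to biliverdin, iron and carbon monoxide. Its signal stayed within 6.29 to 7.09 in all 28 arrays, and it was not called in any comparison. In Aag liver the 12 treated arrays ran from 6.44 to 7.09 with a median of 6.60, against 6.71, 6.29, 6.30 and 6.38 untreated. In WT liver the 9 treated arrays ran from 6.38 to 6.67 with a median of 6.54, against 6.38, 6.38 and 6.34 untreated. Of the treated arrays 4 of 12 in Aag liver and 8 of 9 in WT liver lay above every untreated array of their genotype, where Aag untreated replicate 1 at 6.71 set the limit. The largest differences were 0.34 (SE 0.12, adjusted p = 0.194 in limma) at 48 h in Aag liver and 0.29 (SE 0.14, adjusted p = 0.174) at 6 h in WT liver. Without Aag untreated replicate 1 the Aag difference at 48 h was 0.44 (adjusted p = 0.0322). The 95% intervals of the 4 Aag differences lay between -0.17 and 0.59 and those of the 4 WT differences between -0.21 and 0.59.

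Nqo1, at chr8:107388225-107403205, encodes NAD(P)H quinone dehydrogenase, which reduces quinones by a single step that avoids radical intermediates. Both of its probe sets were below the array median in all 28 arrays, so a change of the mRNA could be missed at this brightness. The first probe set ran from 2.20 to 2.97 in treated Aag liver and from 2.28 to 2.80 in Aag untreated liver, and from 2.14 to 2.53 in treated WT liver and from 2.35 to 2.79 in WT untreated liver. The second ran from 2.15 to 3.17 in treated Aag liver and from 2.42 to 2.57 in Aag untreated liver, and from 2.20 to 2.85 in treated WT liver and from 1.76 to 2.75 in WT untreated liver. Neither was called in any comparison, but the first fell in WT liver at 48 h when the values were left as deposited (-0.41, adjusted p = 0.046) or centred on array medians (-0.49, adjusted p = 0.0163), against -0.28 (adjusted p = 0.217) after quantile normalization. With array weights in limma both were called lower in Aag liver. For 48 h minus 6 h they were -0.28 (adjusted p = 0.0177) and -0.39 (adjusted p = 0.00764). For 48 h minus 24 h they were -0.24 (adjusted p = 0.0277) and -0.33 (adjusted p = 0.0134). Their values correlated at r = 0.47 over the 28 arrays. The highest value of each, 2.97 and 3.17, came from Aag 6 h replicate 1.

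Nfe2l2 itself, at chr2:75675513-75704663, was not called either. Its signal was 5.27 to 6.08 with a median of 5.63 in the 12 treated Aag arrays and 5.25, 5.26, 5.87 and 6.00 in Aag untreated liver. It was 5.10 to 5.82 with a median of 5.30 in the 9 treated WT arrays and 5.47, 5.09 and 5.79 in WT untreated liver. The spread inside groups, a pooled SD of 0.29, was as wide as most differences between groups, whose means spanned 0.44 from WT 6 h to Aag 24 h. In Aag untreated liver that spread followed the array set, with 5.25 and 5.26 in the lower set and 5.87 and 6.00 in the higher. The Aag differences of Nfe2l2 were -0.16 to 0.18 (adjusted p at least 0.73 in limma). Within the lower set they were 0.18 to 0.52 (adjusted p at least 0.255 in limma), none called. Its WT differences were -0.11 to 0.11 (adjusted p at least 0.793 in limma), and in the model with the array-set term they were 0.57 to 0.79 (adjusted p at least 0.172), none called. The array measures mRNA, so the amount and place of the NRF2 protein, by which the pathway is mainly controlled, was not measured.

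**Figure D4:**
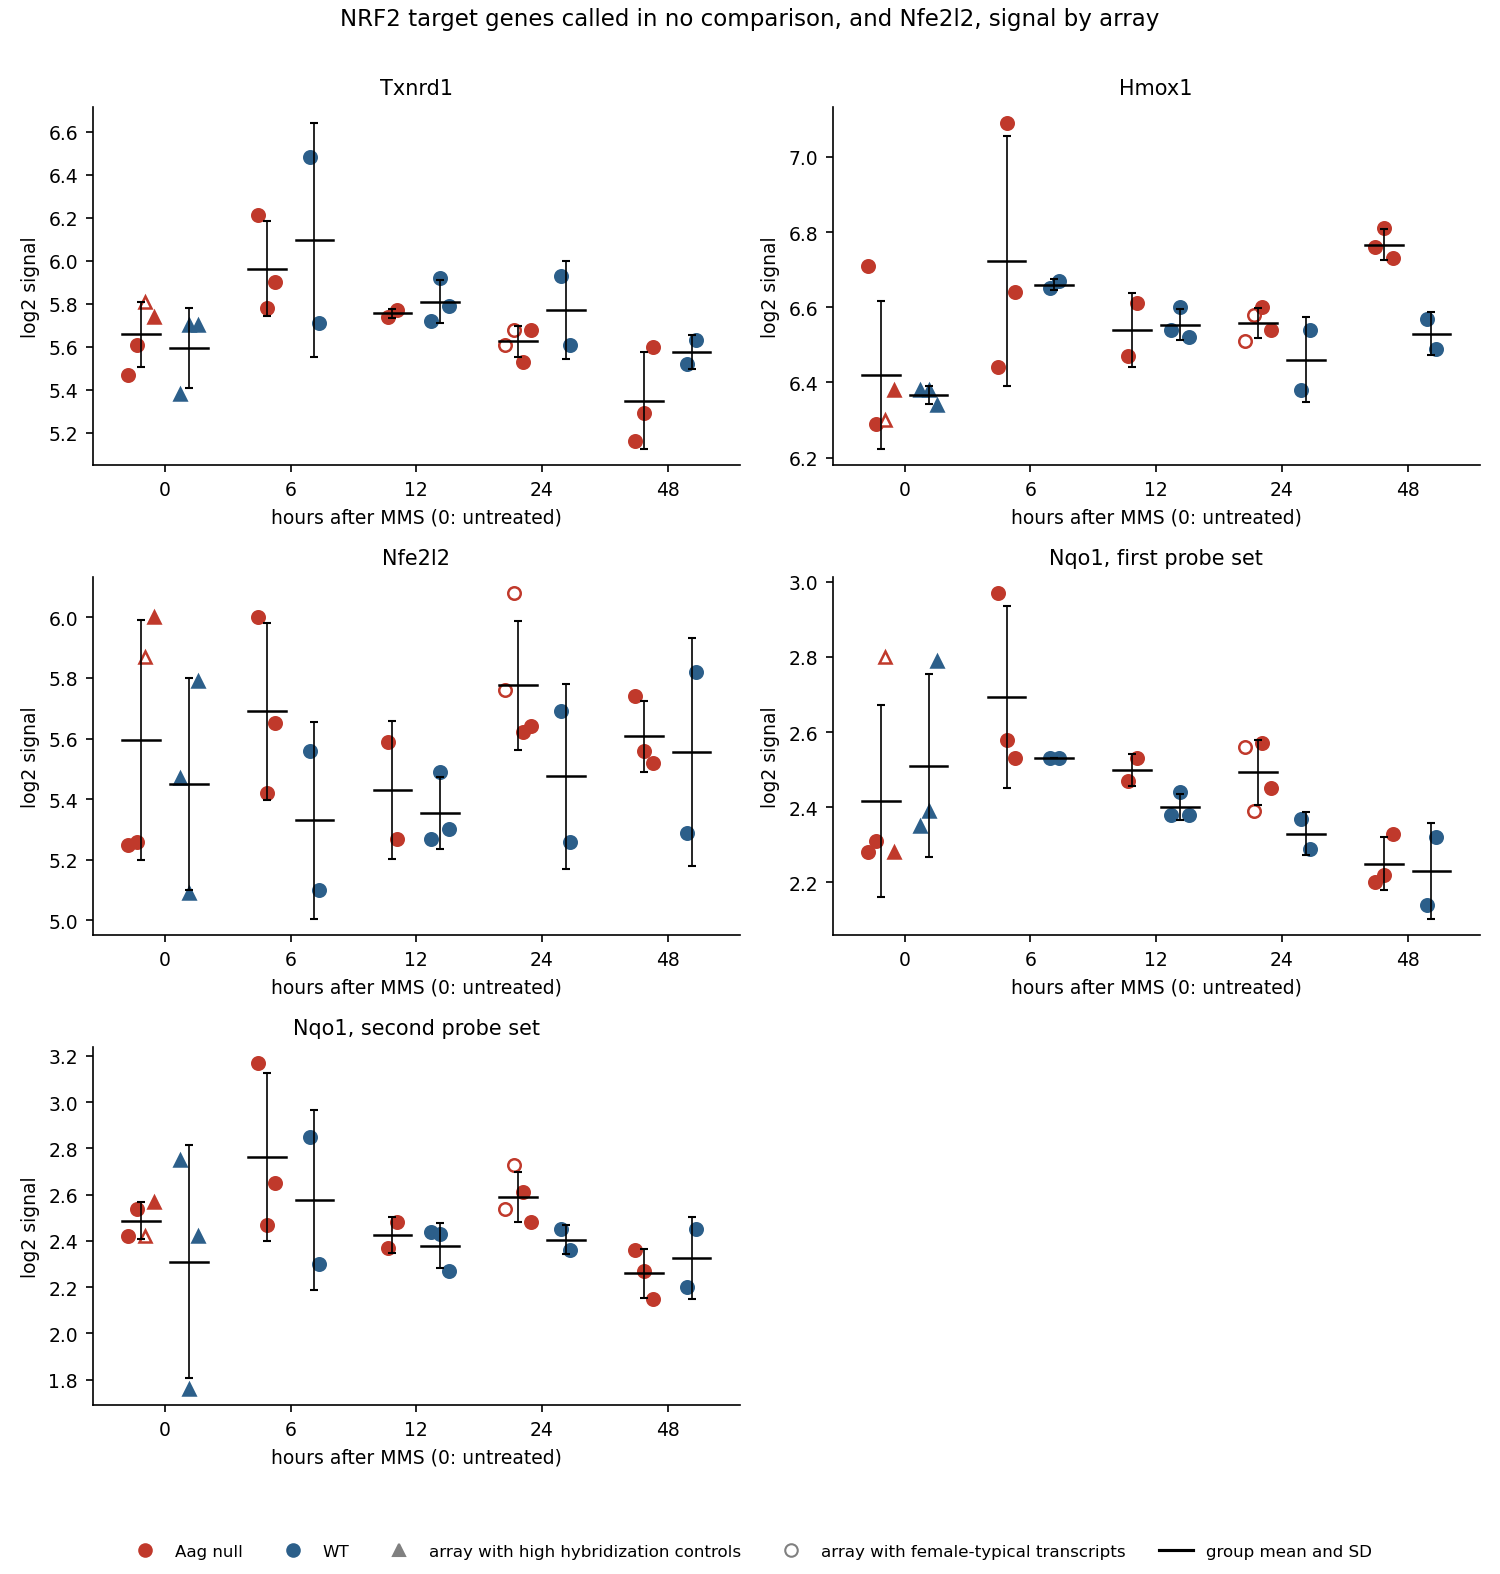
Log2 signal of Txnrd1, Hmox1, Nfe2l2 and the pair of Nqo1 probe sets in each array by time after MMS (times evenly spaced, 0 is untreated), Aag to the left of WT at each time; points are arrays, triangles have high hybridization controls, open symbols female-typical transcripts, and black lines the group mean with its SD. Txnrd1 has its highest group means at 6 h and Hmox1 stays between 6.29 and 7.09.

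Among treated livers the genotypes were not told apart for any of these genes. Of 36 tests of Aag minus WT at a matched time 0 were called by limma and 0 had an unadjusted p under 0.05, where the background was 0.0483%, 0.00805%, 0.0% and 0.0% at 6, 12, 24 and 48 h. Gclm was 0.07 (95% interval -0.25 to 0.40) at 6 h, -0.10 (-0.42 to 0.22) at 12 h, 0.03 (-0.28 to 0.33) at 24 h and -0.20 (-0.52 to 0.12) at 48 h. Its 48 h arrays did not overlap, at 6.43 to 6.44 in Aag liver and 6.62 to 6.65 in WT liver. The largest difference was that of Ugdh at 48 h, -0.57 with an interval from -1.27 to 0.14. All these arrays lie in the lower array set, and the intervals show how far a difference of the genotypes could reach and not that the genotypes act alike.

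The test of whether the response itself differed between the genotypes called Gclm at 48 h and no other of the 36. The Aag response minus the WT response of Gclm was -0.63 (SE 0.20, adjusted p = 0.171) at 6 h, -0.81 (SE 0.20, adjusted p = 0.0709) at 12 h, -0.68 (SE 0.20, adjusted p = 0.111) at 24 h and -0.91 (SE 0.20, adjusted p = 0.0221) at 48 h in limma. The background of these tests was 0.7%, 0.572%, 0.564% and 1.8% at 6, 12, 24 and 48 h. These differences hold the untreated arrays of both genotypes, and Gclm already differed by 0.71 between those. Once the array set was adjusted for, the value at 48 h was -0.79 (adjusted p = 0.0536), and it also missed the threshold without WT 48 h replicate 1 (-0.89, adjusted p = 0.133) or Aag 48 h replicate 3 (-0.90, adjusted p = 0.0585). Other fits that lost it were the filter on dim probe sets (adjusted p = 0.0609), the brightest probe set per gene (adjusted p = 0.0621), the replicate block (-0.88, adjusted p = 0.0542), array weights (adjusted p = 0.123) and only the compared groups (adjusted p = 0.0856). The value at 12 h passed when WT untreated replicate 3, Aag untreated replicate 3 or either WT 6 h array was left out, with adjusted p as low as 0.0265. Ephx1 at 48 h was -0.75 (SE 0.26, adjusted p = 0.141), and with median centring it was called (-1.02, adjusted p = 0.0292).

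Between times after MMS none of the 9 probe sets was called. For 48 h minus 6 h 0 of 18 tests were called by limma and 4 had an unadjusted p under 0.05, at backgrounds of 0.0403% in Aag liver and 0.29% in WT liver. For the 8 further pairs of times, added after the data were seen, 0 of 72 were called and 15 had an unadjusted p under 0.05. Their backgrounds were 0.00805% for 12 h minus 6 h, 0.0242% for 24 h minus 6 h, 0.0161% for 48 h minus 12 h and 0.0% for 48 h minus 24 h in Aag liver, and 0.0161%, 0.177%, 0.0805% and 0.0% for the same pairs in WT liver. Replicate 1 of each genotype at 6 h had the lowest hybridization controls. These 2 arrays correlated at 0.992 with each other over all probe sets, more than either did with any other array. Without them Ugdh at 48 h minus 6 h in WT liver was 1.16, a value that rests on 1 WT array at 6 h. With single arrays left out it ran from -0.25 to 1.16.

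The regulators of NRF2 were measured by 11 of 14 genes on a list of that control. Keap1, which encodes the protein that holds NRF2 back, fell in WT liver at all 4 times and was lower in Aag untreated liver than in WT untreated liver. In Aag liver the 12 treated arrays had Keap1 at 3.07 to 3.46, against 3.08, 3.45, 3.67 and 3.59 untreated. In WT liver the 9 treated arrays had it at 3.04 to 3.64, against 4.47, 4.03 and 4.59 untreated. WT untreated liver thus stood apart for Keap1 as it did for Gclm, with the opposite sign, and only 2 of 28 arrays had Keap1 above the array median. The WT differences were -0.98 (adjusted p = 0.00087), -1.26 (adjusted p = 1.35e-05), -1.12 (adjusted p = 0.000261) and -1.11 (adjusted p = 0.000224) at 6, 12, 24 and 48 h in limma. After adjustment for array set the fall at 12 h was still called (-0.89, adjusted p = 0.0463), and those at the other times were -0.62 to -0.76 with adjusted p between 0.103 and 0.23. Aag untreated minus WT untreated was -0.91 (SE 0.15, adjusted p = 0.000579), and -0.73 (adjusted p = 0.0145) once adjusted for array set. In Aag liver the differences after MMS were -0.16 to -0.28, none called. The Aag response minus the WT response of Keap1 was called at 48 h (0.95, SE 0.23, adjusted p = 0.0368), but not after adjustment for array set (0.77, adjusted p = 0.094).

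Sqstm1, whose protein p62 ties up KEAP1, was low at 12 h and 24 h like Gclc, and at 48 h it stayed below its 6 h values where Gclc did not. In Aag liver it was 7.15, 7.30, 7.05 and 7.22 untreated, 7.59, 7.62 and 7.61 at 6 h, 7.14 and 6.93 at 12 h, 6.89, 6.85, 6.92 and 6.99 at 24 h and 7.08, 6.66 and 7.12 at 48 h. In WT liver it was 7.29, 7.80 and 7.50 untreated, 7.57 and 7.62 at 6 h, 6.85, 6.96 and 7.01 at 12 h, 6.86 and 6.86 at 24 h and 7.15 and 7.23 at 48 h. The 6 h arrays of both genotypes were above all later arrays. In WT liver it fell by 0.59 (adjusted p = 0.00211) at 12 h and by 0.67 (adjusted p = 0.00268) at 24 h, and 24 h minus 6 h was called in both genotypes, at -0.70 (adjusted p = 0.0223) in Aag liver and -0.74 (adjusted p = 0.0489) in WT liver in limma. Adjusted for array set, the WT differences from untreated liver were -0.68 (adjusted p = 0.0711) at 12 h and -0.76 at 24 h, whose adjusted p of 0.05 after rounding still passed. Mafk, a small MAF partner of NRF2, rose in WT liver by 0.39 (adjusted p = 0.0399) at 6 h, 0.42 (adjusted p = 0.0122) at 12 h and 0.49 (adjusted p = 0.0116) at 24 h, and the rises at 12 h (0.69, adjusted p = 0.0255) and 24 h (0.76, adjusted p = 0.0181) were kept when the array set was adjusted for. Slc7a11, the cystine carrier that supplies glutathione synthesis, had a dim probe set, between 1.07 and 1.76 in all 28 arrays and below the median of each, and no file shows that this signal exceeds background. Its signal was called at all 4 times in WT liver (0.29 to 0.43, adjusted p between 0.0016 and 0.0364 in limma) and in Aag untreated minus WT untreated liver (0.29, adjusted p = 0.0221). At this brightness no change of the mRNA is read from these differences, and none of the calls was kept after adjustment for array set.

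The array-set adjustment leans on Aag untreated replicate 3 here as well. Without that array the adjusted fit gave -0.93 (adjusted p = 0.0973) for Keap1 in WT liver at 12 h and -0.77 (adjusted p = 0.0771) in Aag untreated minus WT untreated liver. Mafk was then 0.64 (adjusted p = 0.1) at 12 h and 0.71 (adjusted p = 0.0715) at 24 h, and Sqstm1 at 24 h was -0.68 (adjusted p = 0.169), all in WT liver, so none of these calls was kept.

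**Figure D5:**
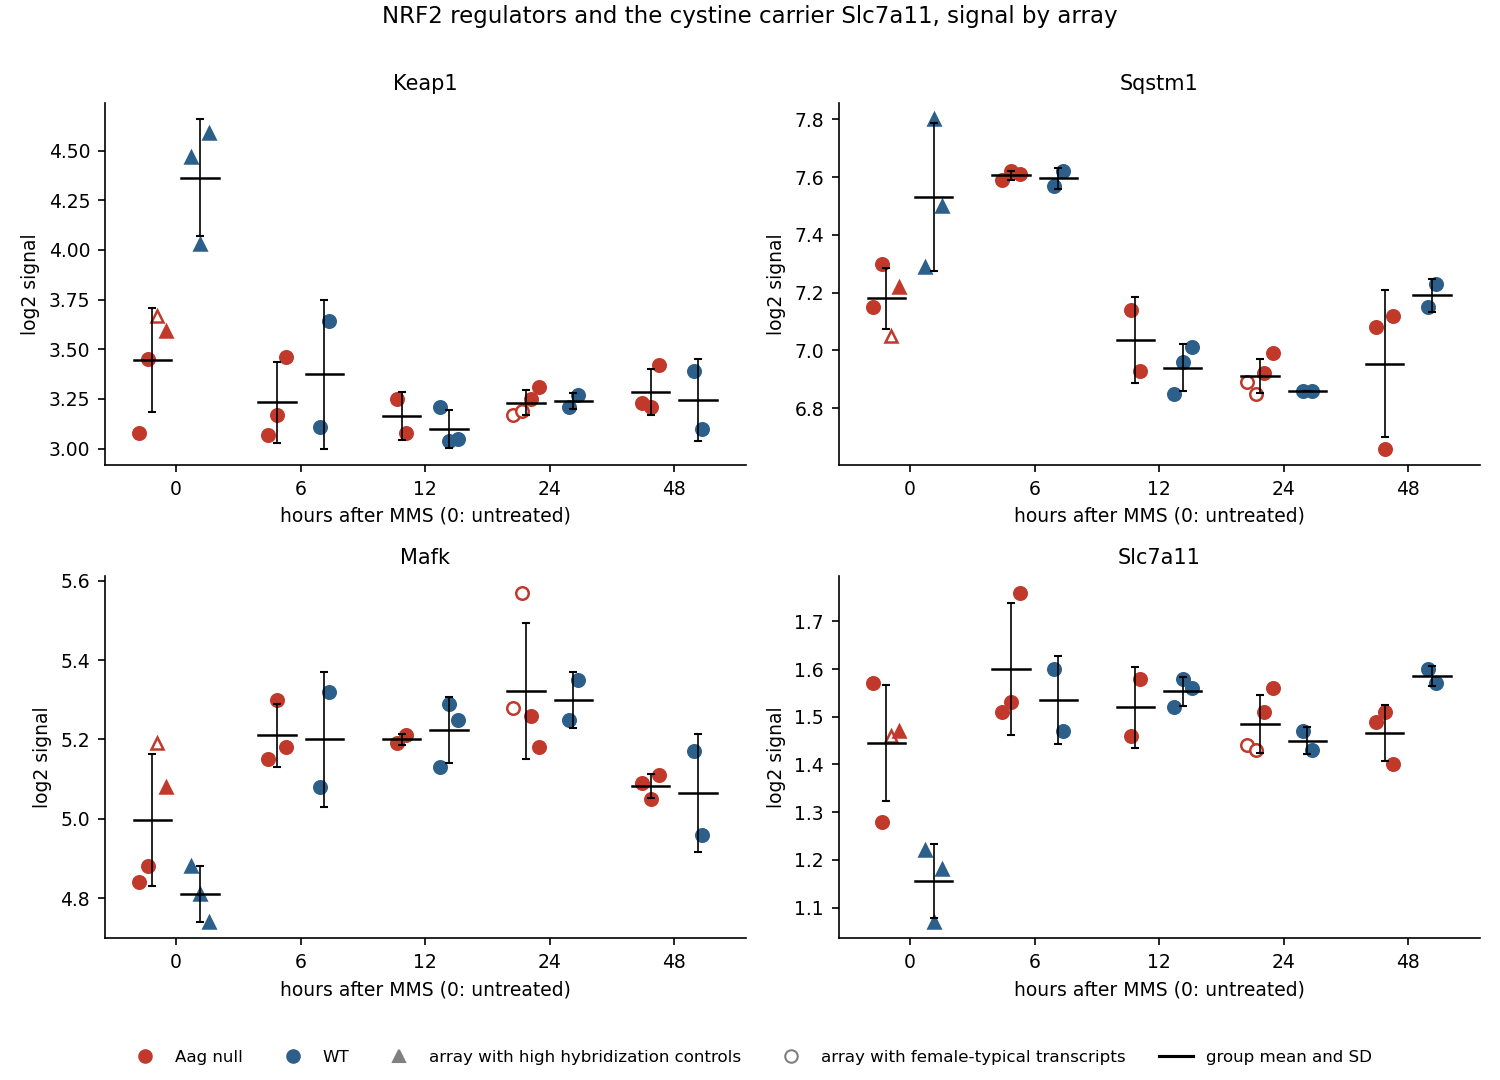
Log2 signal of Keap1, Sqstm1, Mafk and Slc7a11 in each array by time after MMS (times evenly spaced, 0 is untreated), Aag to the left of WT at each time; points are arrays, triangles have high hybridization controls, open symbols female-typical transcripts, and black lines the group mean with its SD. The 3 WT untreated arrays, at 4.03 to 4.59, are the highest for Keap1, and all 6 h arrays lie at 7.57 to 7.62 for Sqstm1.

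Over 7 lists of related genes, 86 of 116 genes were measured, each by its brightest probe set. After MMS in WT liver 4 rose and 11 fell at 6 h, 7 rose and 12 fell at 12 h, 8 rose and 5 fell at 24 h and 9 rose and 6 fell at 48 h. The rises were 4.65%, 8.14%, 9.30% and 10.5% of the 86 genes, where 7.42%, 10.6%, 6.44% and 7.72% of all probe sets were called higher. The falls were 12.8%, 13.95%, 5.81% and 6.98%, where 9.42%, 11.2%, 8.67% and 9.92% of all were called lower, so neither lay on one side of the background at all times. In the fit adjusted for array set the WT counts were 1 and 0 at 6 h, 4 and 2 at 12 h, 5 and 1 at 24 h and 8 and 0 at 48 h for rises and falls in turn. In that fit 1.49%, 2.5%, 2.62% and 2.99% of all probe sets were called in either direction at these times. In Aag liver 0 were called at 6 h and at 12 h, 2 rose at 24 h and 1 rose at 48 h. The backgrounds there were 0.314%, 0.129%, 0.499% and 0.233% of all probe sets called at 6, 12, 24 and 48 h. Adjusted for array set the rises in Aag liver were 0, 1, 6 and 1 at 6, 12, 24 and 48 h with 0 falls, at backgrounds of 0.113%, 0.233%, 0.555% and 0.129% of all probe sets called. Within the lower array set 7 rose at 24 h, where 0.781% of all probe sets were called, and 0 were called at the other times. The 6 that rose at 24 h in both of these fits were the transferases Gsta2, Gstt2 and Mgst3, the carboxylesterase Ces1d, the exporter Abcc3 and Alas1, which starts heme synthesis, and Idh2, which makes NADPH in mitochondria, was the seventh within the lower set. Of the 6, Mgst3 alone missed the threshold in the adjusted fit without Aag untreated replicate 3 (1.34, adjusted p = 0.056). Of the Aag arrays at 24 h, replicates 1 and 2 carried female-typical transcripts. Without Aag untreated replicate 3, or within the lower set, no untreated Aag array carried them. The part of this in the rises of these genes at 24 h was not tested. Between untreated livers 1 gene, Slc7a11, was called higher in Aag and 3 genes, Keap1, Txn2 and the glutathione conjugate exporter Abcc1, were lower, where 3.69% and 5.68% of all probe sets were called in these directions. After adjustment for array set Keap1 and Txn2 were still lower, but Slc7a11 (0.31, adjusted p = 0.0608) and Abcc1 (-0.50, adjusted p = 0.0641) were no longer called. The glutathione transferases, which join glutathione to electrophiles, had the most rises, 5 of 18 in WT liver at 48 h against 1 fall, where 7.72% of all probe sets were called higher, with a median difference of 0.34 where that of all probe sets was 0.02. At the earlier times in WT liver the same list had 1 rise and 3 falls at 6 h, 2 and 3 at 12 h, and 3 and 1 at 24 h. Gsta2, an alpha class transferase, rose in both genotypes at 48 h, by 0.77 (SE 0.16, adjusted p = 0.0438) in Aag liver and by 1.25 (SE 0.20, adjusted p = 0.000189) in WT liver in limma, and both calls were kept in the fit adjusted for array set (0.94, adjusted p = 0.0407, and 1.58, adjusted p = 0.00239). With Aag untreated replicate 3 also left out the WT call was kept (1.72, adjusted p = 0.00517) and the Aag call was not (0.94, adjusted p = 0.0575). In Aag liver at 24 h Gsta2 rose by 0.68 (adjusted p = 0.0439) and Gstm1, of the mu class, by 0.57 (adjusted p = 0.0448). The Gstm1 value was not called once adjusted for array set (0.59, adjusted p = 0.117). Gstm6 fell in WT liver at 12 h by 0.92 (adjusted p = 0.000167), but its other probe set gave 0.36 there. Mgst2, a microsomal transferase, fell by 2.06 (SE 0.35, adjusted p = 0.000226) in WT liver at 12 h and was -0.89 (adjusted p = 0.361) once adjusted for array set, while its dimmer probe set was not called (adjusted p = 0.99).

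The thioredoxin and peroxiredoxin list had 4 falls among 14 measured genes in WT liver at 6 h and 0 rises, with a median of -0.11 where that of all probe sets was 0.01 and 9.42% of all were called lower. None of the 4 falls was kept after adjustment for array set. Txn2, mitochondrial thioredoxin, fell by 0.66 (SE 0.13, adjusted p = 0.000922) in WT liver at 48 h, which was -0.62 (adjusted p = 0.0683) adjusted for array set, and was lower in Aag untreated than in WT untreated liver (-0.47, adjusted p = 0.00703), a call that was kept after adjustment for array set (-0.45, adjusted p = 0.0372) but not when Aag untreated replicate 3 was left out as well (-0.39, adjusted p = 0.254). Srxn1, sulfiredoxin, an NRF2 target that reactivates peroxiredoxins, fell by 0.93 (SE 0.26, adjusted p = 0.0175) in WT liver at 48 h, and it was -1.10 (adjusted p = 0.135) once the array set was adjusted for. None of the 6 measured genes of NADPH supply was called in the response of either genotype, the smallest adjusted p in limma being 0.0714 for Pgd, of the pentose phosphate pathway, in Aag liver at 6 h. Within the lower array set Idh2 rose in Aag liver at 24 h (0.77, adjusted p = 0.0179), against 0.41 (adjusted p = 0.348) over all arrays. Among 19 measured genes of conjugation, reduction and export, Cbr1, a carbonyl reductase, fell by 1.10 (SE 0.23, adjusted p = 0.00195) and Ugt2b5, a glucuronosyltransferase that uses the product of Ugdh, rose by 0.74 (SE 0.19, adjusted p = 0.0088) in WT liver at 12 h. Once the array set was adjusted for, these were -0.14 and 0.17 and were not called. Among 9 measured genes around heme, Hp, haptoglobin, rose by 1.21 (SE 0.20, adjusted p = 0.00016) in WT liver at 12 h and was 0.62 (adjusted p = 0.254) when the array set was adjusted for. Hmox2, the constitutive heme oxygenase, fell by 0.40 (adjusted p = 0.0392) in WT liver at 24 h, which was -0.26 (adjusted p = 0.52) after adjustment for array set. Urod, of heme synthesis, rose by 0.49 (adjusted p = 0.029) at 48 h by its brighter probe set but fell by 0.87 (adjusted p = 0.0122) by the other, and the brighter one was 0.41 (adjusted p = 0.345) with that adjustment.

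Across the arrays Gclm, Ephx1 and Ugdh varied together. Over the 28 arrays r was 0.80 for Gclm with Ephx1, 0.77 for Gclm with Ugdh and 0.76 for Ephx1 with Ugdh. Over the 23 arrays of the lower set r was 0.58, 0.72 and 0.52 for the same pairs. Gclc did not follow Gclm over all arrays (r = -0.05) but did so within the lower set (r = 0.56), where it also varied with Ephx1 (r = 0.68). These are descriptions, since the points share groups, array sets and normalization. Among probe sets of other genes that exceeded the median of their array in 14 arrays or more, the pattern most like that of Gclm was that of Tpp1 (r = 0.86, and 0.57 within the lower set). The most like Gclc was Sqstm1 (r = 0.67 and 0.60), the most like Ugdh was Entpd5 (0.87 and 0.77) and the most like Ephx1 was Celf1 (0.84 and 0.61). For Txnrd1 it was Tbrg1 (0.86 and 0.86), for Hmox1 Eif4ebp2 (0.76 and 0.70), for Nfe2l2 Taf1d (0.81 and 0.77) and for Nqo1 Klhl9 (0.81 and 0.80).

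In whole liver, fewer cells of a type and less RNA per cell cannot be told apart. The summed signal of 12 of 13 Kupffer cell and macrophage markers was 9.01 to 9.82 in treated Aag liver and 9.27 to 9.73 in Aag untreated liver, and 8.88 to 9.28 in treated WT liver and 9.04 to 9.44 in WT untreated liver. Endothelial markers, 8 of 10 measured, summed to 7.94 to 8.31 in treated WT liver and 8.39 to 8.58 in WT untreated liver, so those groups did not overlap. Eng weighs most in that sum, at a mean of 7.52 against 5.08 for the next, Pecam1. Only 3 of the 8 exceeded the array median in 14 arrays or more. The median difference of the 8 in WT liver was -0.16, 0.04, -0.02 and 0.09 at 6, 12, 24 and 48 h. The part of either marker list in the differences above was not tested.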

How the data were processed

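Liver RNA was extracted, copied into biotinylated cRNA and hybridized to Affymetrix arrays by the standard protocol, per the labels' protocols. The authors deposited 1 table of 12488 probe sets in 28 arrays, whose values run from 0.69 to 13.2 and were read as log2 signals. Neither labels nor file headers record how the probes were summarised and normalized. The 66 control probe sets were removed, and the remaining 12422 were quantile normalized, since array medians spanned 0.22. Probe sets were named from GEO's platform annotation, where 10855 have 1 symbol, 396 several and 1237 none. A model with 1 mean for each of the 10 groups was fitted to all probe sets and arrays with limma 3.58.1 (lmFit, eBayes with an intensity trend, 18 residual degrees of freedom) in R 4.3.3. Adjusted p-values are Benjamini-Hochberg values over all probe sets of a comparison, and intervals are 95% intervals from the same fit. The same fit was also run on simulated arrays with known changes. These held no difference between array sets, so they do not check the comparisons that the array set touches. Tables and figures were made in Python 3.11.15 with pandas 2.3.3 and matplotlib 3.10.9.

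The genes and lists were chosen with earlier results of these data known. All probe sets of the 9 genes are described, and genes of other lists are named by the smallest adjusted p-values in each kind of comparison. A gene with several probe sets counts in a list by the brightest. Groups and replicate numbers follow the sample titles; for Aag 12 h replicate 2 and Aag 48 h replicates 2 and 3 another label says replicate 1. Replicate numbers were not taken as pairs. Alternatives were the values as deposited, median centring, a filter on dim probe sets (7261 kept, each brighter than the median of its array in 2 arrays or more), 1 probe set per gene, the replicate number as a block, array weights, only the compared groups in the fit, adjustment for the array set or each set alone, the female-typical arrays left out, and each array left out. Comparisons of further times, the higher set alone, the fit without both 6 h arrays of lowest controls, and the array-set fit without Aag untreated replicate 3 were added after the data were seen.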

Additional observations from a re-analysis of the deposited data

Results flagged for a closer look

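The first probe set of Nqo1 was at 2.80 in Aag untreated replicate 3, far from the other arrays of that group, at 2.28, 2.31 and 2.28. The gap was 0.94 of the range of the group. This was the only 1 flagged of 18 sets of 4 arrays examined. With 18 sets examined a flag can arise by chance, and how often was not worked out. The array is among those with female-typical transcripts and high hybridization controls, and their part in the value was not tested.

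The response of Gclm at 48 h was called as different between the genotypes, where the Aag response minus the WT response was -0.91 (adjusted p = 0.0221 in limma), with Aag 48 h arrays at 6.43, 6.44 and 6.43 and WT 48 h arrays at 6.65 and 6.62. The difference contains the untreated livers, at 6.39 ± 0.16 in Aag (SD, n = 4) and 5.68 ± 0.08 in WT (SD, n = 3). The call was lost once the array set was adjusted for (-0.79, adjusted p = 0.0536), with the replicate block (-0.88, adjusted p = 0.0542), with array weights, the filter on dim probe sets, the brightest probe set per gene or only the compared groups, and without WT 48 h replicate 1 (adjusted p = 0.133) or Aag 48 h replicate 3 (adjusted p = 0.0585).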

How the results depend on the processing

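No result of the 9 probe sets that passed the threshold before any alternative was applied changed its sign under one. Ugdh at 48 h minus 6 h in WT liver, not called over all arrays, ran from -0.25 to 1.16 with single arrays left out. At both ends of that range 1 WT array was left at 6 h. The 12 calls in WT liver became 7 with only the compared groups in the fit and 2 after adjustment for array set, and ranged from 9 to 13 when single arrays were left out. With array weights all WT calls at 6 h and that of Gclc at 12 h were lost. The 0 calls in Aag liver became 1 within the lower array set and ranged from 0 to 1 with single arrays left out. The 1 call between untreated genotypes, Gclm, became 0 with array weights, with only the compared groups and within the higher array set. It became 2, with Ephx1 added, with the values as deposited, without the female-typical arrays and without replicate 1 of both 6 h groups, and ranged from 1 to 2 with single arrays left out. The 0 calls between treated genotypes stayed at 0 throughout. The 1 call in the difference of the responses became 2 with the values as deposited and with median centring, 3 without replicate 1 of both 6 h groups, and 0 with the filter on dim probe sets, with the brightest probe set per gene, with array weights, with only the compared groups and after adjustment for array set. It ranged from 0 to 3 with single arrays left out. The 0 calls in 48 h minus 6 h became 3 with array weights. They stayed at 0 with single arrays left out, except without WT 6 h replicate 2, which left 1 WT array at 6 h. The fit without replicate 1 of both 6 h groups also left 1 WT array at that time. The 0 calls between other times became 9 with array weights, 2 with only the compared groups and 2 within the lower array set, and ranged from 0 to 0 with single arrays left out. With the replicate number as a block the counts were 12 in WT liver, 0 in Aag liver, 1 between untreated genotypes and 0 in the difference of the responses, where Gclm at 48 h was -0.88 (adjusted p = 0.0542), so the block changed that call alone. Deviations of same-numbered arrays from their group means correlated between -0.68 and 0.89, with no steady sign. Adjusted for array set and without Aag untreated replicate 3, a fit added after the data were seen, the counts were 0 in WT liver, 1 in Aag liver (Gclc at 24 h, -0.69, adjusted p = 0.0472), 0 between untreated genotypes and 0 in the difference of the responses. Without WT 6 h replicate 2, which left 1 WT array at 6 h, the Aag response minus the WT response of Gclm at 6 h was -0.91. The causes of these changes were not tested.

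All WT comparisons with untreated liver rest on 3 arrays that differ from every treated array in their hybridization controls and Gapdh 3' to 5' difference. The term for the array set comes from 4 Aag untreated arrays, 1 of them female-typical. Quantile normalization assumes like distributions in all groups. The Nqo1 probe sets are below the array median throughout.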
